A study of Caenorhabditis elegans with 11 samples.

Results

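The 10 genes scl-19, bcmo-1, C30G12.2, dlhd-1, gfi-1, Y16B4A.2, ZK512.7, T22B7.7, clx-1 and sdz-24 of Caenorhabditis elegans were chosen by their strong falls with males, in these same arrays, both without RNAi and under utx-1 RNAi. They are 10 of 17118 genes with a probe set of their own on the array. All 11 of their single-symbol probe sets are described, out of 22548 tested, with 2 for ZK512.7 and 1 for each other gene. RNA came from whole hermaphrodites on day 8, and 1 Affymetrix array was hybridised per sample. The strain in all groups was glp-1(e2141), whose temperature-sensitive mutation makes hermaphrodites sterile at 25 °C. In all groups the temperature was 15 °C for the embryos and 25 °C for the worms. The 4 groups were glp-1(e2141) without males (n = 3), glp-1(e2141) with wild-type males (n = 3), glp-1(e2141) with utx-1 RNAi without males (n = 3) and glp-1(e2141) with utx-1 RNAi and wild-type males (n = 2, replicates 1 and 3), called the RNAi-plus-males group here. Plates without males held 500 hermaphrodites, plates with males held 250 hermaphrodites and 250 males, and 200 hermaphrodites were pooled for each RNA sample. The number of hermaphrodites per plate therefore differed with the presence of males, and both cannot be told apart. No empty-vector group is named, so that knockdown of utx-1 and RNAi treatment as such cannot be told apart either.

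The gonad of glp-1 mutants has few or no germ cells at the restrictive temperature because GLP-1, a Notch receptor, keeps germ line stem cells dividing. Males shorten the life of hermaphrodites in C. elegans through mating and secreted signals. UTX-1 removes methyl groups from lysine 27 of histone H3. The genes described here do not form a pathway. SCL-19 belongs to the SCP-like secreted proteins, a family with the cysteine-rich CAP domain that also holds insect venom antigens. BCMO-1 is a relative of the mammalian enzyme that cleaves beta-carotene to retinal. DLHD-1 is named for a dienelactone hydrolase domain, and Y16B4A.2 encodes a serine carboxypeptidase related to mammalian cathepsin A. The gene gfi-1 is named for the interaction of its product with GEI-4, and sdz-24 for a transcript of the embryo that depends on the transcription factor SKN-1. The other 4 genes are given by name only. Per the WBcel235 annotation, bcmo-1, C30G12.2, dlhd-1 and sdz-24 lie on chromosome II, ZK512.7 on III, clx-1 on IV, scl-19 and gfi-1 on V, and T22B7.7 and Y16B4A.2 on X.

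Transcripts of utx-1 itself did not overlap between arrays with and without its RNAi, and were lower with it. At the dimmer of its probe sets utx-1 read 7.03 to 7.14 in the 6 arrays without RNAi and 4.41 to 4.999 in the 5 arrays with it. At the brighter probe set the arrays without RNAi read 11.54 to 13.09, those with RNAi and no males 4.81 to 6.42, and both of the RNAi-plus-males group 9.06 and 8.401. The difference at that probe set was -6.55 ± 0.36 without males (adjusted p = 6.09e-06) and -4.18 ± 0.40 with males (adjusted p = 1.58e-05), and whether these differ was not tested. Both arrays of the RNAi-plus-males group stood apart from the other 9. Their 5 germ cell markers (mex-5, puf-3, glh-1, pgl-1 and htp-3) had a mean level of 6.80 to 6.89, against 4.08 to 4.48 in the other arrays, and the 5 oocyte and eggshell markers read 8.303 to 8.401 against 3.14 to 4.15. That difference is present in every comparison that uses these arrays, and its part in the results was not tested. In bulk samples, fewer cells of a type and less RNA per cell cannot be told apart.

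**Figure D1:**
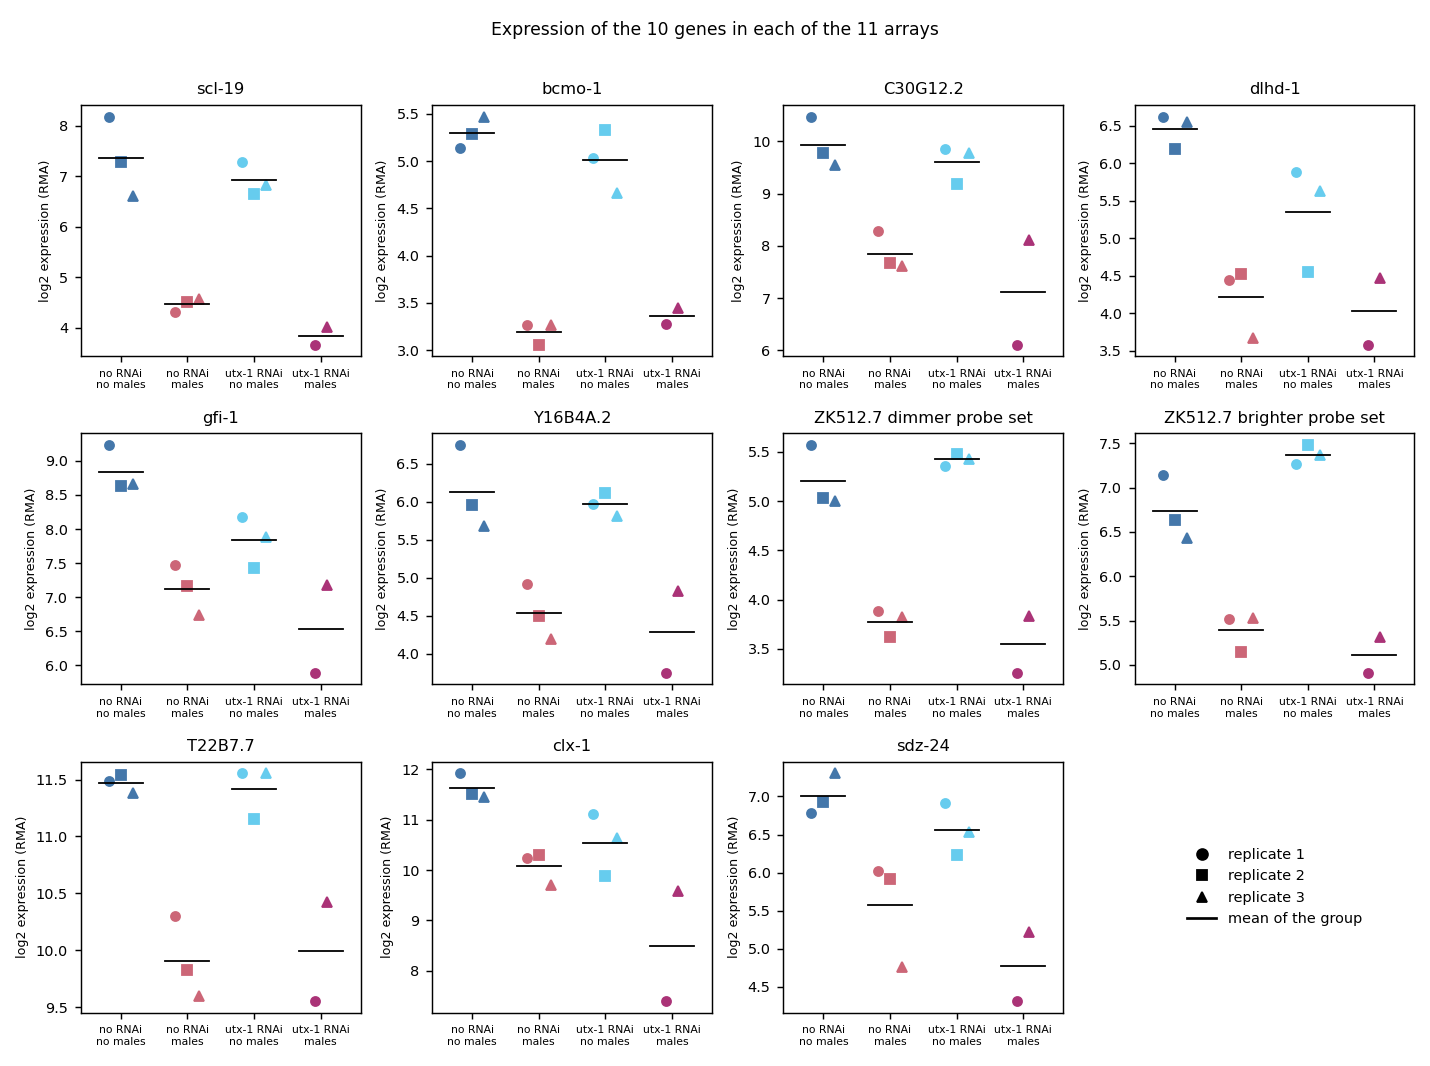
Log2 expression (RMA) at each of the 11 probe sets of the 10 genes, 1 point per array, by group. Symbols give the replicate number and bars the mean of the group; the vertical axes differ and do not start at 0. In each panel every array with males lies below every array without males of the same background, and replicate 1 of the RNAi-plus-males group is below its replicate 3.

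Values are log2 expression, so that a difference of 1 is a 2-fold change. For scl-19 the arrays without males and without RNAi read 8.18, 7.27 and 6.60, and those with males 4.31, 4.51 and 4.57. Under utx-1 RNAi the values were 7.28, 6.64 and 6.83 without males and 3.66 and 4.003 with males. The groups with and without males did not overlap in either background, and the 3 arrays without males and without RNAi spread over 1.58, the widest range among the 10 genes within that group. The difference with males was -2.88 ± 0.30 (log2, SE of the fit) without RNAi and -3.09 ± 0.34 under utx-1 RNAi, which left 13.6% and 11.8% of the linear signal. These differences chose the gene and are given without a test, as are those of the other 9.

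The carotenoid enzyme gene bcmo-1 read 5.14, 5.29 and 5.47 without males, and 3.27, 3.06 and 3.26 with males. Under utx-1 RNAi it read 5.03, 5.33 and 4.67, against 3.27 and 3.44 with males. All 5 arrays with males lay within 0.38 of each other and below the median of all probe sets on their array, which was 3.87 to 3.97 in these arrays. The difference with males was -2.10 ± 0.15 without RNAi and -1.65 ± 0.16 under utx-1 RNAi, so that 23.3% and 31.9% of the signal were left. At such low signal RMA shrinks differences, and the change in RNA may have been larger. Some arrays with males also read below their median at scl-19, dlhd-1, Y16B4A.2 and the dimmer probe set of ZK512.7. The same limit holds for the sizes given for these genes.

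For the hydrolase-domain gene dlhd-1 the values were 6.62, 6.19 and 6.55 without males and 4.44, 4.53 and 3.68 with males. Under utx-1 RNAi they were 5.89, 4.54 and 5.63 without males and 3.58 and 4.47 with males. Here both groups came close, since replicate 2 without males stood only 0.07 above replicate 3 with males. The differences were -2.24 ± 0.34 and -1.33 ± 0.38. For the carboxypeptidase gene Y16B4A.2 the arrays without RNAi read 6.75, 5.96 and 5.68, and 4.91, 4.49 and 4.20 with males. Under utx-1 RNAi they read 5.97, 6.12 and 5.82 without males and 3.74 and 4.82 with males. The groups with and without males stood 0.77 and 0.996 apart at their nearest arrays, and the means differed by -1.59 ± 0.30 and -1.68 ± 0.33.

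The GEI-4 interactor gene gfi-1 read 9.24, 8.63 and 8.66 without males and 7.47, 7.16 and 6.73 with males. Under utx-1 RNAi it read 8.18, 7.43 and 7.89, against 5.89 and 7.17 with males. The lowest array without males and the highest with males were 1.15 apart without RNAi and 0.26 apart under utx-1 RNAi. The differences were -1.72 ± 0.31 and -1.30 ± 0.34. For sdz-24, named for its dependence on SKN-1, the values were 6.78, 6.92 and 7.31 without males and 6.03, 5.92 and 4.77 with males, and under utx-1 RNAi 6.92, 6.23 and 6.53 against 4.31 and 5.22. Its replicate 3 with males and without RNAi lay far below the other 2 arrays of that group. The differences were -1.43 ± 0.32 and -1.79 ± 0.36.

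For C30G12.2 the arrays read 10.48, 9.78 and 9.55 without males and 8.28, 7.67 and 7.62 with males. Under utx-1 RNAi the values were 9.86, 9.18 and 9.78 without males, and 6.11 and 8.12 with males. The replicates of the last group were 2.01 apart, about as far as the groups without RNAi differed. The difference with males was -2.08 ± 0.42 without RNAi and -2.49 ± 0.47 under utx-1 RNAi. For clx-1 the arrays read 11.92, 11.504 and 11.45 without males, and 10.24, 10.29 and 9.71 with males. Under utx-1 RNAi they read 11.12, 9.87 and 10.64, against 7.40 and 9.58. Replicates of the RNAi-plus-males group were 2.18 apart, the widest gap among the 11 probe sets, and the differences with males were -1.55 ± 0.45 and -2.05 ± 0.50.

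The signal of T22B7.7 was 11.49, 11.54 and 11.38 without males and 10.30, 9.83 and 9.60 with males. Under utx-1 RNAi the arrays read 11.56, 11.15 and 11.56, and with males 9.55 and 10.43. The arrays without males spread over 0.16 and those with males over 0.70 when no RNAi was given. The differences were -1.56 ± 0.22 and -1.43 ± 0.24. At the brighter probe set of ZK512.7 the values were 7.15, 6.63 and 6.43 without males and 5.51, 5.14 and 5.53 with males, and under utx-1 RNAi 7.26, 7.48 and 7.37 against 4.91 and 5.31. At the dimmer one they were 5.57, 5.03 and 5.002 against 3.89, 3.62 and 3.83, and 5.36, 5.48 and 5.43 against 3.26 and 3.84. Both probe sets of the gene gave the same direction, with -1.34 ± 0.17 and -1.42 ± 0.17 without RNAi and -2.26 ± 0.19 and -1.88 ± 0.18 under utx-1 RNAi. The probe sets of T22B7.7, gfi-1 and Y16B4A.2 and the brighter one of ZK512.7 are of the _s_at kind, which can bind transcripts of related genes.

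In each background 11 of 11 probe sets were lower in every array with males than in every array without, where 16.9% of all probe sets were so without RNAi, 25.6% under utx-1 RNAi and 8.69% in both. The rule fixes this count, and nothing is read from it. The median over the 11 was -1.59 without RNAi and -1.79 under utx-1 RNAi, beside -0.006 and -0.027 over all probe sets. In 24 probe sets, 0.106% of all, the difference with males was at least as large as that of the least changed member in each background (1.34 lower without RNAi and 1.30 lower under utx-1 RNAi), and 11 of these 24 were the members. The difference under utx-1 RNAi minus that without RNAi ran from -0.92 ± 0.26 at the brighter probe set of ZK512.7 to 0.91 ± 0.51 at dlhd-1. It is built from both differences that chose the genes and was not tested.

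**Figure D2:**
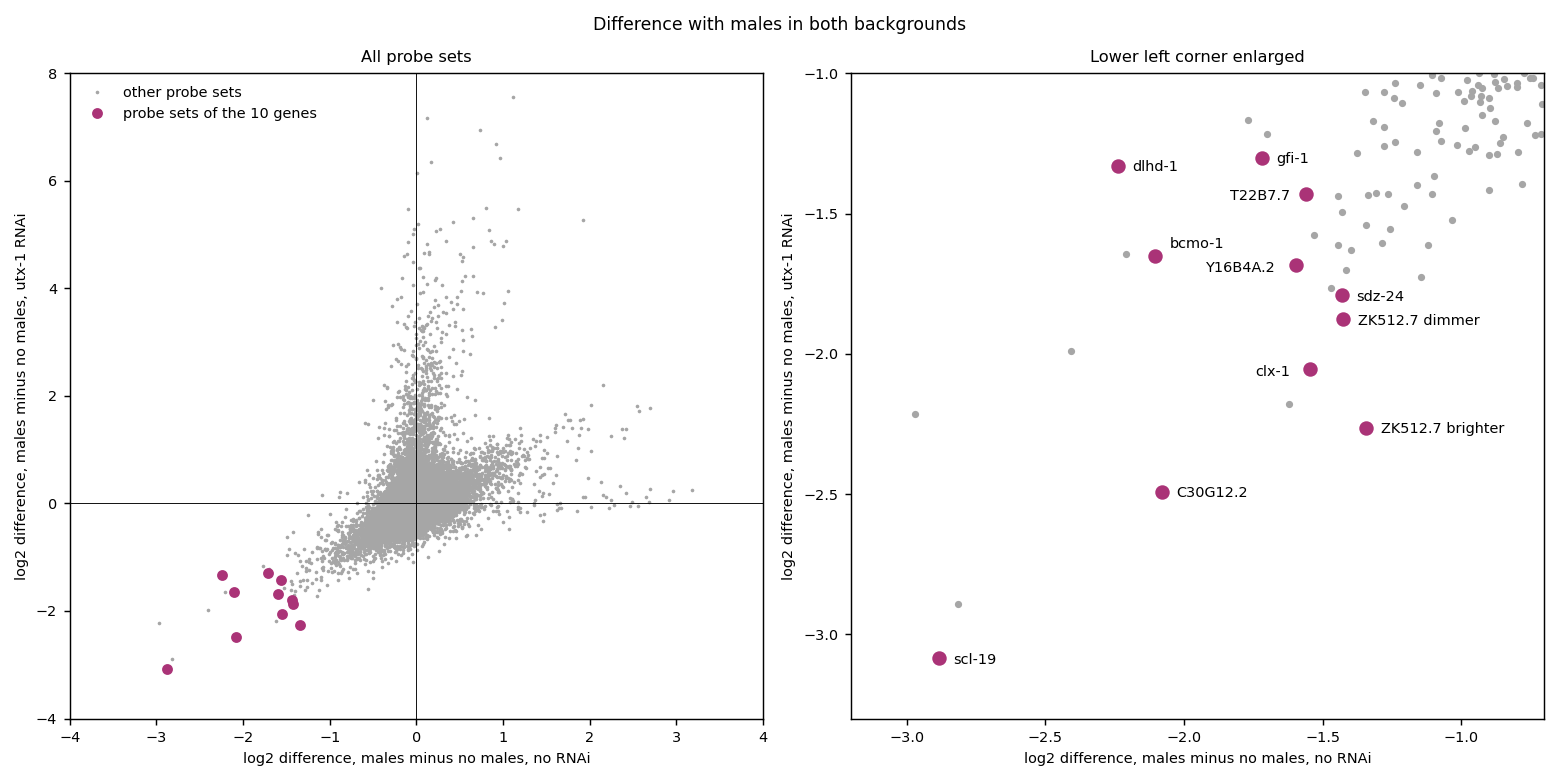
Log2 difference, males minus no males, without RNAi (horizontal axis) and under utx-1 RNAi (vertical axis) for all 22548 probe sets (left) and for the lower left corner (right). Large points are the 11 probe sets that were chosen for their position here, the farthest of them scl-19 at -2.88 and -3.09.

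Markers of other tissues were read beside these differences. Without RNAi, 1 of 5 epidermal markers fell with males and their mean level went from 4.38 to 4.64 without males to 3.97 to 4.16 with males. Of the 9 intestinal markers 2 fell and 2 rose, with a mean level of 9.09 to 9.25 against 9.06 to 9.12. Of the 5 germ cell markers 1 fell and 1 rose. Their mean level was 4.17 to 4.48 without and 4.10 to 4.31 with males, and oocyte markers 3.53 to 4.15 and 3.65 to 3.97, so that both ranges overlapped without RNAi. Under utx-1 RNAi, 2 of 5 epidermal markers fell with males and none rose, and their mean level was 4.345 to 4.359 without males and 3.93 to 4.04 with males. In the same comparison 3 of 5 muscle markers fell with males and none rose, and their mean level was 7.18 to 7.61 without males and 6.53 to 6.85 with males. The 5 measured markers of male neurons and seminal fluid had 0 members past limma's threshold with males in either background, and 4 measured sperm markers had 1 that rose in each. The part of the epidermal, muscle and intestinal markers in the results was not tested.

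The effect of utx-1 RNAi was not used to choose the genes, although it shares arrays with the differences that were. Without males (3 arrays against 3), the difference with RNAi was -1.097 ± 0.34 at dlhd-1 (adjusted p = 0.144), -1.08 ± 0.45 at clx-1 (adjusted p = 0.253) and -1.01 ± 0.31 at gfi-1 (adjusted p = 0.141). In these 3 genes every RNAi array was below every array without RNAi. The brighter probe set of ZK512.7 went the other way, 0.64 ± 0.17 higher (adjusted p = 0.115) and higher in 3 of 3 arrays, while the dimmer one was 0.22 ± 0.17 higher with overlapping arrays (adjusted p = 0.525). The other 6 probe sets overlapped between groups and differed by -0.44 (sdz-24) to -0.05 (T22B7.7), with adjusted p of 0.339 or more. Thus 3 of 11 probe sets were lower in every array, beside 14.6% of all probe sets, and 1 of 11 was higher, beside 7.55%.

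By limma 0 of the 11 probe sets were lower and 0 higher past the adjusted threshold of 0.05 without males, while 0.129% of all probe sets were lower and 0.0355% higher. At an unadjusted p under 0.05 there were 3 lower, beside 10.9% of all probe sets, and 1 higher, beside 6.05%. In the same comparison 0 of 11 passed in each of 17 alternatives. The overall split of calls depends on the scaling, with 29 lower and 8 higher as deposited and 28 lower and 36 higher after each array was centred on its median. Few probe sets passed in this comparison at all, and a p above the threshold does not show that a gene was unchanged by the RNAi.

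With males (2 arrays against 3), the difference at clx-1 was -1.59 ± 0.50, at adjusted p = 0.0554. It was -0.50 with replicate 3 of the RNAi-plus-males group alone (adjusted p = 0.562) and -2.68 with replicate 1 alone (adjusted p = 0.0006). The value of sdz-24 was -0.80 ± 0.36 (adjusted p = 0.167), that of C30G12.2 -0.74 ± 0.47 (0.328), that of scl-19 -0.64 ± 0.34 (0.244) and that of gfi-1 -0.59 ± 0.34 (0.288). The remaining 6 probe sets lay between -0.29 (ZK512.7, brighter) and 0.16 (bcmo-1), with adjusted p of 0.369 or more. Every RNAi array was lower at scl-19 and clx-1 (2 of 11, beside 27.6% of all probe sets) and higher at bcmo-1 (1 of 11, beside 17.6%), there by 0.007 between the nearest arrays.

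Past the adjusted threshold of limma, 0 of 11 were lower and 0 higher with males, while 5.07% and 8.96% of all probe sets were. At an unadjusted p under 0.05, 2 were lower, beside 15.7% of all probe sets, and 0 higher, beside 12.7%. Without replicate 3 of the RNAi-plus-males group, 3 genes passed: clx-1, C30G12.2 at -1.75 (adjusted p = 0.00777) and gfi-1 at -1.23 (adjusted p = 0.0267). The single remaining array is then assumed to vary like the other groups. Without replicate 3 of the group with males and without RNAi, sdz-24 passed at -1.21 (adjusted p = 0.0168), and scl-19 passed in a fit of only both groups (adjusted p = 0.0221). In this comparison 5 of 5 germ cell and 5 of 5 oocyte markers rose and 5 of 5 muscle markers fell, and their part in the values of the 10 genes was not tested. The calls over all probe sets were 1144 lower and 2021 higher, or 3190 and 1822 with each array centred on its median.

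**Figure D3:**
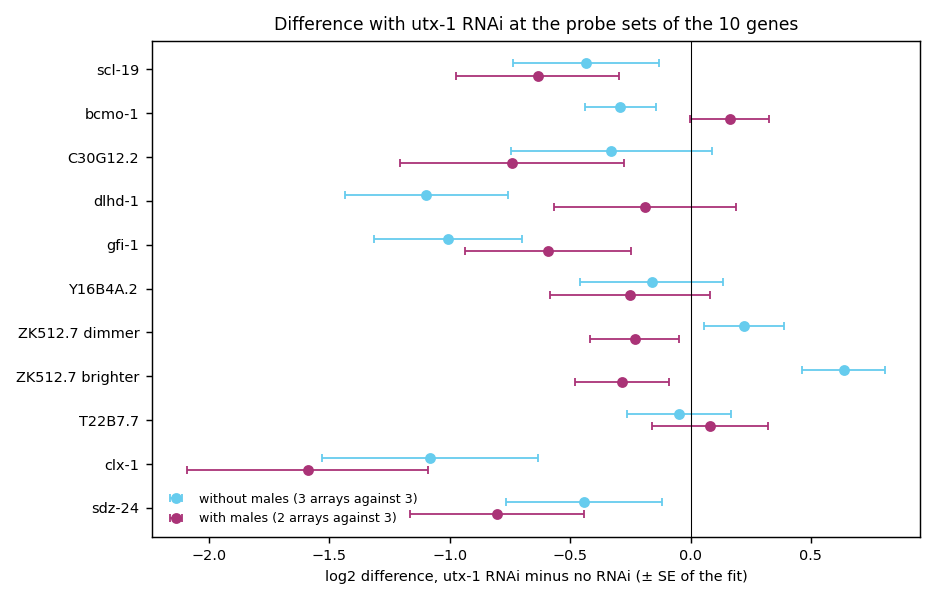
Log2 difference, utx-1 RNAi minus no RNAi, at the 11 probe sets of the 10 genes, without males and with males; bars are ± the standard error of the fit. Values for dlhd-1, gfi-1 and clx-1 without males lie near -1, and the brighter probe set of ZK512.7 lies at 0.64 without males and -0.29 with males.

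The order of the 4 groups differed between genes. The rule fixes that the highest group has no males and the lowest has males. For 9 of the 11 probe sets the group without males and without RNAi was the highest, and for both of ZK512.7 it was utx-1 RNAi without males. For 9 of 11 the lowest was the RNAi-plus-males group, and for bcmo-1 and T22B7.7 it was males without RNAi. Over all probe sets the median difference with RNAi was -0.028 without males and -0.058 with males. The share of all probe sets with the same highest or lowest group was not computed, and nothing is read from these counts. The highest and the next group did not overlap at dlhd-1, gfi-1, clx-1 and the brighter probe set of ZK512.7. At each probe set these were the groups without males. Between them 14.6% of all probe sets were lower in every RNAi array and 7.55% higher. The second and the third group overlapped at gfi-1, where utx-1 RNAi without males reached down to 7.43 and males without RNAi up to 7.47, and at clx-1, where these values were 9.87 and 10.29. The lowest 2 groups, those with males, overlapped at 8 of 11 probe sets and were apart at scl-19, bcmo-1 and clx-1. Between them 27.6% of all probe sets were lower in every RNAi array and 17.6% higher.

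Within the groups, several of the genes deviated together. In replicate 1 of the RNAi-plus-males group 11 of 11 probe sets were below replicate 3, where 57.7% of all probe sets were. The median of the 11 gaps was -0.89 and that of all probe sets -0.033. A gap as deep as that of clx-1 (-2.18) was found in 0.0266% of all probe sets, one as deep as that of C30G12.2 (-2.01) in 0.031% and one as deep as that of gfi-1 (-1.28) in 0.0621%, while that of bcmo-1 (-0.17) was reached by 21.9%. The rule chose the genes by falls that use both of these arrays, which favours low values in either. Nothing about the genes is read from this count or these shares. Mean levels of germ cell markers were 6.89 in replicate 1 and 6.80 in replicate 3, those of muscle markers 6.53 and 6.85. With replicate 3 alone, the difference with males under utx-1 RNAi was -0.66 at gfi-1, -0.96 at clx-1, -0.99 at T22B7.7, -1.15 at Y16B4A.2, -1.49 at C30G12.2 and -1.59 at the dimmer probe set of ZK512.7. With replicate 1 alone these values were -1.94, -3.14, -1.87, -2.22, -3.496 and -2.17 in the same order. At dlhd-1 they were -0.88 and -1.77.

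Replicate 1 of the group without males and without RNAi was below its group mean at 2 of 11 probe sets, beside 48.8% of all probe sets. At scl-19 it was 0.83 above. Replicate 2 of that group was below at 10 of 11, beside 56.9%, and its replicate 3 at 8 of 11, beside 45.3%. In the group with males and without RNAi, replicate 1 was below at 1 of 11, beside 54.9% of all probe sets. Its replicate 2 was below at 6 of 11, beside 53.96%. Replicate 3 was below at 7 of 11, beside 43.6%, down to -0.81 at sdz-24. In the males-free RNAi group, replicate 1 was below at 3 of 11, beside 38.19% of all probe sets. There replicate 2 was below at 7 of 11, beside 43.27%, and replicate 3 at 5 of 11, beside 69.34%. The deviations of gfi-1, C30G12.2, clx-1 and T22B7.7 from their group means correlated with each other over the 11 arrays (r of 0.95 between C30G12.2 and gfi-1 and 0.95 between gfi-1 and clx-1). Those of bcmo-1 ran against those of dlhd-1 (r = -0.43) and of scl-19 (r = -0.41). Over the 45 pairs of genes, each at its brightest probe set, the mean r was 0.44, and over all pairs of probe sets 0.041. Without both arrays of the RNAi-plus-males group the means were 0.30 and 0.042, and r was 0.91 between C30G12.2 and gfi-1 and 0.94 between dlhd-1 and clx-1. These arrays share their RNA sample between all genes, and the correlations are a description over 11 or 9 arrays. The value over all pairs includes many dim probe sets. No set of like signal or of other genes that fell with males was compared.

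**Figure D4:**
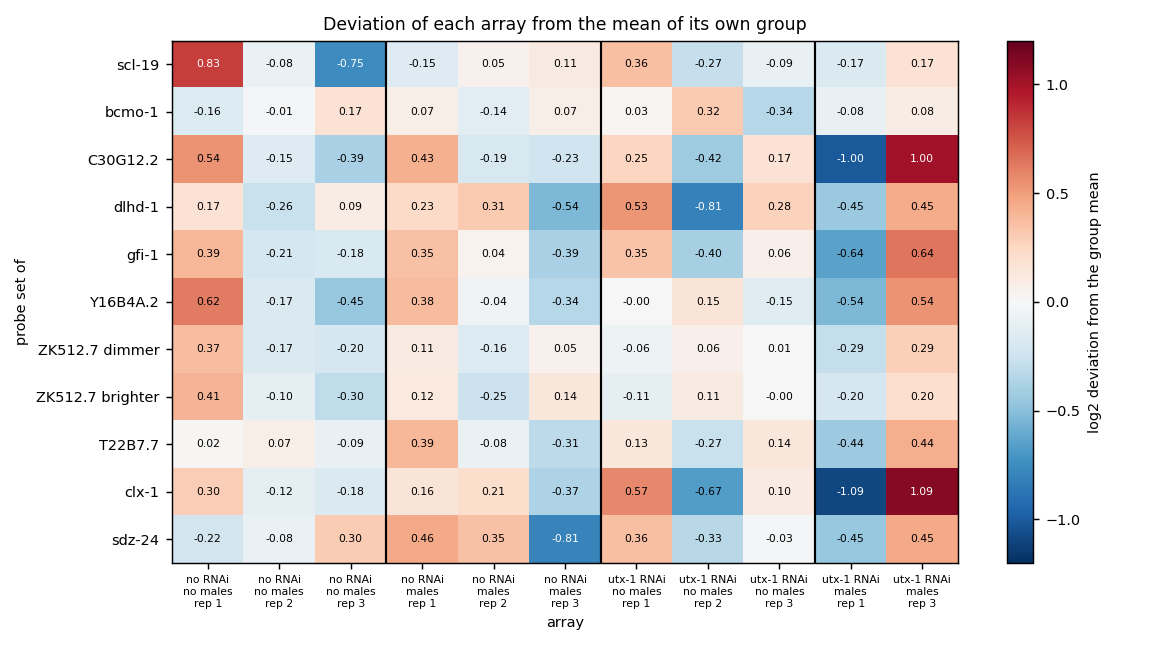
Deviation (log2) of each array from the mean of its own group, for the 11 probe sets; columns are arrays, lines divide the groups, and numbers give the deviation. With 2 arrays in the last group the deviations mirror each other, and all 11 are negative in replicate 1, from -1.09 at clx-1 to -0.08 at bcmo-1.

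Genes that lie next to the 10 on the chromosome were measured for 17 neighbours. Without RNAi 3 fell with males and 0 rose, and under utx-1 RNAi 3 fell and 1 rose, where 6.86% and 9.53% of 17118 genes fell and 5.61% and 12.4% rose. The neighbour of gfi-1, bcf-1, fell by 1.26 ± 0.29 (adjusted p = 0.0167) and fell by 1.43 ± 0.33 (adjusted p = 0.00842). Both genes have _s_at probe sets, as do bcmo-2 and ctsa-2 among the relatives named further on. The neighbour of scl-19, the SCP-like family gene scl-20, fell by 0.55 ± 0.15 (adjusted p = 0.0327) and fell by 0.90 ± 0.16 (adjusted p = 0.00217). C50F7.3, next to clx-1, fell by 0.58 ± 0.08 (adjusted p = 0.00202) and fell by 0.38 ± 0.09 (adjusted p = 0.0125). With utx-1 RNAi C50F7.3 fell by 0.57 ± 0.08 without males (adjusted p = 0.0308) and by 0.37 ± 0.09 with males (adjusted p = 0.021). Its group means of 2.61 to 3.56 and those of C30G12.6, 2.45 to 3.33, lay below the array medians of 3.77 to 3.97. The rise was that of C30G12.6, next to C30G12.2, by 0.80 ± 0.10 under utx-1 RNAi (adjusted p = 8.29e-05), in the arrays with raised germ cell markers.

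Some of these calls rest on single arrays. The call of bcf-1 without RNAi ended without replicate 1 of the group without males and without RNAi (adjusted p = 0.0713), without its replicate 2 (0.0524), and without replicate 2 (0.0657) or 3 (0.062) of the group with males. It ended as well with a trended and robust prior (0.053). That of scl-20 without RNAi ended without replicate 1 (0.123) or 2 (0.0678) of the group without males and without replicate 1 (0.105) or 2 (0.0613) of the group with males, and with replicate number as a block (0.0678). The fall of C50F7.3 with utx-1 RNAi without males passed in 8 of 16 alternatives. It ended on leaving out any 1 of the 6 arrays compared (0.0583 to 0.119), with replicate number as a block (0.104) and in a fit of only both groups (0.0581). With males the fall of C50F7.3 with utx-1 RNAi passed in 12 of 15 alternatives. It ended in a fit of only both groups (0.0646) and without replicate 3 of the group with males and without RNAi (0.0645). Leaving out replicate 1 of the RNAi-plus-males group ended it too. Under utx-1 RNAi the calls of bcf-1 (0.14) and C50F7.3 (0.138) ended without replicate 1 of the RNAi-plus-males group.

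Of 24 other scl genes, 4 fell and 4 rose with males without RNAi (median 0.04), and 5 fell and 1 rose under utx-1 RNAi (median -0.13). Without RNAi only 1 of the 4 rises passed with a replicate block, in a fit of only both groups, or without replicate 1 or 2 of the group without males, and 2 passed without its replicate 3, without replicate 2 of the group with males or without replicate 3 of the males-free RNAi group. Of the 4 falls 1 passed without replicate 2 of the group with males and 2 without replicate 1 of the group without males. Under utx-1 RNAi 2 of the 5 falls passed without replicate 1 of either RNAi group, and the 1 rise passed in 7 of 15 alternatives. The genes scl-2 and scl-12 fell in both, where scl-2 fell by 0.88 (adjusted p = 0.00215) and fell by 1.03 (0.000329), and scl-12 fell by 0.64 (0.0267) and fell by 0.68 (0.0203). Without RNAi scl-21 fell by 0.57 (0.0123) and scl-18 rose by 0.53 (0.00745), and scl-5 fell by 0.66 (0.0236) under utx-1 RNAi. The group means of scl-18, 2.91 to 3.53, lay below the array medians of 3.77 to 3.97. The falls of scl-12 (0.248) and scl-5 (0.33) under utx-1 RNAi ended without replicate 1 of the RNAi-plus-males group, and both also without replicate 1 of the males-free RNAi group (0.0629 and 0.076), scl-5 further without its replicate 2 (0.0611). Without RNAi the fall of scl-12 ended without replicate 1 (0.104) or 3 (0.0731) of the group without males and replicate 2 (0.0856) or 3 (0.0742) of the group with males, and that of scl-21 without replicate 2 of the latter (0.0521).

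Of 18 genes for fatty acid and retinoid binding or carotenoid cleavage, 1 fell and 2 rose without RNAi, and 1 fell and 1 rose under utx-1 RNAi. The fall was that of bcmo-2, the other carotenoid oxygenase gene, which fell by 0.91 ± 0.10 (adjusted p = 0.000744) and fell by 0.93 ± 0.12 (adjusted p = 0.00013), and it passed in all 17 and 16 alternatives. Among the risers were lbp-3 (0.35) and far-6 (0.26) without RNAi and lbp-9 (0.69) under utx-1 RNAi, members of lipid-binding families. Over the alternatives lbp-3 passed the threshold in 10 of 17, with an adjusted p of up to 0.1, and far-6 in 3 of 17, with up to 0.167. The call of lbp-9 reached 0.0639 only without replicate 1 of the RNAi-plus-males group.

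Among 7 serine carboxypeptidase genes related to Y16B4A.2, ctsa-2 fell by 0.73 (adjusted p = 0.0135) without RNAi and fell by 0.61 (0.0321) under utx-1 RNAi, and ctsa-4.2 fell by 0.76 (0.004) under utx-1 RNAi, with 0 rises in either background. Under utx-1 RNAi the call of ctsa-2 reached 0.401 and that of ctsa-4.2 0.0735 without replicate 1 of the RNAi-plus-males group, and ctsa-2 also passed no longer without replicate 1 (0.0993) or 3 (0.069) of the males-free RNAi group. Without RNAi it reached 0.0543 without replicate 1 of the group without males and 0.0546 without replicate 2 of the group with males. Of 31 other sdz genes 0 fell and 1, sdz-35, rose, by 0.51 (adjusted p = 0.00477) and by 0.48 (0.00499). Most of these sdz genes had mean signals below the array medians of 3.77 to 3.97 in every group. A fall could hardly be seen there, and the count of 0 says little about the family. Among those above were sdz-27 and sdz-8, with means of 11.76 and 4.38 without males and without RNAi.

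The genes whose values over the 11 arrays were most like the averaged, standardised values of the 10 were cdr-6, dhs-26, Y105C5B.15, PDB1.1 and F09B12.3, with Pearson r of 0.993, 0.99, 0.99, 0.988 and 0.987. Among the members themselves the r with that average, which they enter, was 0.880 to 0.984. The short-chain dehydrogenase gene dhs-26 had means of 8.52 and 5.70 without and with males, and of 8.17 and 5.28 under utx-1 RNAi. Its replicates of the RNAi-plus-males group were 4.48 and 6.07. The cadmium-responsive family gene cdr-6 differed by less, from 8.80 to 8.12 and from 8.63 to 7.93. For Y105C5B.15 the difference with males was -1.53 ± 0.16 and -1.58 ± 0.18, for PDB1.1 -0.86 ± 0.12 and -0.94 ± 0.14, and for F09B12.3 -1.07 ± 0.17 and -1.24 ± 0.19. In each of these 5 genes, replicate 1 of the RNAi-plus-males group was the lowest of the 11 arrays. The genes were picked by their likeness to the members over these same arrays, and nothing is read from this.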

How the data were processed

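The deposited values are log2 expression per probe set of Affymetrix C. elegans arrays, and RMA is the method that the submitters' processing notes name. Its version and settings, and whether all arrays were run together, were not given in the sources used here. Array medians were 3.77 to 3.97, and the number of arrays limits the precision. Groups and replicate numbers follow the titles; the description of 2 utx-1 RNAi arrays gives another number. Per the labels, replicates were independent experiments. The 77 control probe sets were left out. Of 22548 others 20766 had 1 symbol, updated by gene identifier through RefSeq (WBcel235), which was used for names, chromosomes and neighbours.

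One mean per group was fitted over all 11 arrays with limma 3.58.1 (R 4.3.3; lmFit, contrasts.fit, eBayes). The Benjamini-Hochberg adjustment ran over all 22548 probe sets of a comparison, at a threshold of 0.05, and each adjusted p is limma's. Lists use the brightest probe set of a gene and markers are averaged over their genes. Named were the 10 genes, up to 4 genes of a list with the smallest p per males comparison, all such neighbours, and the 5 genes most alike. The members and lists were chosen with earlier results of these data known. The alternatives were a replicate block, a trended and robust prior, centred arrays, a minimum mean of 4, fewer groups in the fit, and leaving out each array. Arrays of different groups with the same number in their titles did not deviate together (r of -0.352 to 0.051), so that the numbers were not taken as pairs. For the utx-1 RNAi arrays whose description gives another number, this check cannot settle the pairing. The procedure was tested on simulated data. Sequences of the genes were not used here.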

Additional observations from a re-analysis of the deposited data

How the results depend on the processing

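The differences with males at the 11 probe sets kept their direction in all alternatives run; 12 of 176 values under utx-1 RNAi and 0 of 187 without RNAi moved by more than 1 SD, all 12 on leaving out 1 array of the RNAi-plus-males group. For utx-1 RNAi without males 0 of 187 member values changed their side of the threshold, and with males 8 of 176 newly passed it, where clx-1 also passed with centred arrays (adjusted p = 0.0346), with a minimum mean of 4 (0.0497) and on leaving out replicate 2 of the RNAi group kept without males (0.049). Over all probe sets 2661 passed for males without RNAi (1552 with a replicate block, 1362 to 2732 on leaving out 1 array, the lowest without replicate 1 of the group without males; leaving out replicate 2 or 3 of the group with males gave 1678 and 1524). For males under utx-1 RNAi 4707 passed (7565 with centred arrays, 2028 to 4867 on leaving out 1 array, the lowest without replicate 1 of the RNAi-plus-males group). For utx-1 RNAi without males 37 passed (6 with a replicate block, 96 with the trended prior, 64 with centred arrays, 18 with both groups only, 5 to 59 on leaving out 1 array), and with males 3165 (5012 with centred arrays, 1476 to 3218). Centring shifted the males difference under utx-1 RNAi by 0.12 for every probe set and turned the share of higher calls there from 56.7% to 26.6%. The cause was not tested. The replicate block moved no member's call.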

Other observations

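The other 13 probe sets that differed with males by at least as much as the least changed member in both backgrounds are given without a test, since they were chosen by their values. They were cpr-2, a cathepsin B-like protease gene (-2.97 without RNAi and -2.21 under utx-1 RNAi), the short-chain dehydrogenase genes dhs-26 (-2.81 and -2.89) and dhs-2 (-1.44 and -1.44), the C-type lectin gene clec-61 (-2.41 and -1.99) and the lipase-like gene lips-11 (-1.62 and -2.18). The list goes on with the lysozyme gene lys-2 (-1.45 and -1.61), the UDP-glucuronosyltransferase gene ugt-63 (-1.41 and -1.70), the astacin protease gene nas-20 (-1.35 and -1.54), hacd-1 (-1.43 and -1.50), Y105C5B.15 (-1.53 and -1.58) and Y69H2.3 (-1.40 and -1.63). The last 2 probe sets have no single symbol.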
